A study of Mus musculus with 2 samples.

Results

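Respiratory complex I was followed through its messenger RNAs in immature γδ T cells of the fetal mouse thymus. The genes were taken by symbol alone: 36 nuclear genes whose symbols consist of Ndufa, Ndufb, Ndufc, Ndufs or Ndufv and a number, and the 7 mitochondrial genes mt-Nd1, mt-Nd2, mt-Nd3, mt-Nd4, mt-Nd4l, mt-Nd5 and mt-Nd6. Together they make 43 of the 31053 genes in the count tables, and all 43 had UMIs (unique molecular identifiers, each standing for a captured RNA molecule) in both libraries. All 43 also passed the filter on low values used below. The rule leaves out assembly factors and Ndufab1, the acyl carrier protein of the complex, and takes in Ndufa4, whose product is now assigned to complex IV.

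The study used untreated wild-type C57BL/6 thymic lobes, dissected at embryonic day 15 and cultured for 2 days. CD24+ γδ T cells were sorted by their staining with TMRE, a dye taken up by mitochondria according to the potential across their inner membrane. The brightly stained cells are called TMREhi and the dimly stained ones TMRElo. Both gave 1 single-cell library, prepared with a kit that reads the 5′ ends of transcripts, and the labels do not say how many embryos were pooled. There were no replicate libraries, so every difference below is between sums of barcodes, no test was made, and the 95% intervals in brackets hold counting error only.

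Complex I is the entry point of electrons from NADH into the respiratory chain. Its peripheral arm oxidises NADH and passes the electrons along iron-sulfur clusters to ubiquinone, and its membrane arm pumps protons, which builds the membrane potential that TMRE reports. The 7 nuclear core subunits (among them Ndufv1, Ndufv2, Ndufs1, Ndufs3, Ndufs7 and Ndufs8) carry out the redox chemistry. The 7 mitochondrial subunits form the core of the membrane arm. The other 29 nuclear members are counted here as accessory, 10 of them belonging to the Ndufb family of the membrane arm. Except for Ndufa4, they are accessory subunits that surround the core. The 2 genomes are expressed by separate machineries, so a cell has to match their outputs.

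On GRCm38 the 36 nuclear genes lay on 15 chromosomes, 2 of them on the X chromosome. The 7 mitochondrial genes are encoded on a single circular chromosome and are cut from long shared transcripts. The genes mt-Nd4l (chrM:9877-10173) and mt-Nd4 (chrM:10167-11544) overlap by 7 bases on the same strand and are kept on a shared messenger RNA. That junction is shown because the UMIs of the 2 genes changed in proportion between kinds of barcode, as described below. The plus strand of GRCm38 at chrM:10127-10213 reads as follows, with the 7 bases that belong to both genes in capitals.
junction: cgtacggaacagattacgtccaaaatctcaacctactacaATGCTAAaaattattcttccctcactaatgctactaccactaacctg

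Promoter windows from RefSeq on GRCm38.p6, from 250 bases before to 50 bases after the annotated start, were matched to 32 of the 36 nuclear members. Motifs of 3 factors known for their role in nuclear respiratory genes were searched on both strands: YY1 as AAGATGGCG, the core of the NRF1 site as TGCGCA and the ETS site of GABPA as CCGGAAG. The letters of these motifs do not contain each other. The YY1 letters were in 5 of the 32 windows (15.6%) and in 1.64% of the windows of 27025 genes. The NRF1 letters were in 10 (31.2%, against 8.79% of all genes) and the ETS letters in 4 (12.5%, against 9.93%). The windows of 32 other nuclear genes of oxidative phosphorylation held the YY1 letters in 2 cases, the NRF1 letters in 8 and the ETS letters in 13.

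All 5 YY1 matches began between 23 and 36 bases after the start and lay on the sense strand. They are shown, with the motif in capitals, because the 5 genes differed widely in their response to ribosomal class, described below, from -2.73 to -0.44 on the log2 scale. Each line is 30 bases read in the direction of the gene. The positions on GRCm38.p6 are chr3:51408914-51408943 (minus strand) for Ndufc1, chr13:73328433-73328462 (minus) for Ndufs6, chr10:80249463-80249492 (plus) for Ndufs7, chr6:126849096-126849125 (minus) for Ndufa9 and chr13:114388045-114388074 (minus) for Ndufs4.
Ndufc1: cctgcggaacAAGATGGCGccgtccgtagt
Ndufs6: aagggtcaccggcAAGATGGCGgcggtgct
Ndufs7: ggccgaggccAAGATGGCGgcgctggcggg
Ndufa9: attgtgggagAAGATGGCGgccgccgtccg
Ndufs4: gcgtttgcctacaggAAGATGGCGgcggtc

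Barcodes with at least 500 genes were used, 1025 in TMREhi (4235563 UMIs) and 133 in TMRElo (219352 UMIs), and none was shared between the libraries. They fell into a low-ribosomal class, with under 15% of UMIs from ribosomal protein genes (735 in TMREhi, 118 in TMRElo), and a high-ribosomal class (290 and 15). The low-ribosomal barcodes were shallower, with medians of 1567 and 1038 UMIs against 8357 and 3974, and had more mitochondrial UMIs, with medians of 16.9% and 14.4% against 3.54% and 3.80%. Because both properties enter the classes or the members, a level is given as UMIs per 1000000 UMIs of nuclear genes other than the 84 ribosomal protein genes. All 6 genes examined as γδ T cell markers (Trdc, Tcrg-C1, Tcrg-C2 and the CD3 chains Cd3d, Cd3e and Cd3g) had UMIs in each class of each library. Of the 7 αβ thymocyte markers, all had UMIs in both classes of TMREhi, whereas Rag2 and Ptcra were at 0 in low-ribosomal TMRElo and Rag1, Rag2, Ptcra and Cd4 in high-ribosomal TMRElo. The globin genes and the B cell genes Cd79a and Ms4a1 were at 0 throughout. The B cell gene Cd79b had 31 and 70 UMIs in low- and high-ribosomal TMREhi and 0 and 2 in TMRElo. The myeloid markers summed to levels of 479 and 530 in TMREhi and 458 and 745 in TMRElo, where Lyz2 and Csf1r were at 0. The 5 deepest barcodes held 57.7% of the UMIs of high-ribosomal TMRElo, and RNA from outside cells was not measured.

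Nuclear and mitochondrial complex I messages went in opposite directions between the ribosomal classes. In TMREhi the summed level of the 36 nuclear members was 4331 (4203–4462) in low-ribosomal and 13736 (13570–13904) in high-ribosomal barcodes, 3.17-fold lower in the former (3.07–3.28). The 7 mitochondrial members stood at 54441 (53986–54899) and 13971 (13803–14140), 3.90-fold higher in the low-ribosomal class (3.84–3.95). TMRElo showed the same arrangement, with nuclear levels of 2545 (2260–2855) and 10750 (9902–11652) and mitochondrial levels of 39850 (38697–41028) and 15018 (14012–16077). Nuclear genes thus supplied 49.6% of all complex I UMIs in high-ribosomal TMREhi barcodes but 7.37% in low-ribosomal ones, and 41.7% against 6.00% in TMRElo. In single barcodes the nuclear level had a median of 3776 (quartiles 2339 and 5426) in low-ribosomal and 13334 (11221 and 14945) in high-ribosomal TMREhi, and of 1908 and 11660 in TMRElo. The quartile ranges of the classes did not overlap in either library. No nuclear complex I UMI was seen in 45 of the 735 low-ribosomal TMREhi barcodes and 20 of the 118 in TMRElo, and in none of the high-ribosomal barcodes.

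**Figure D1:**
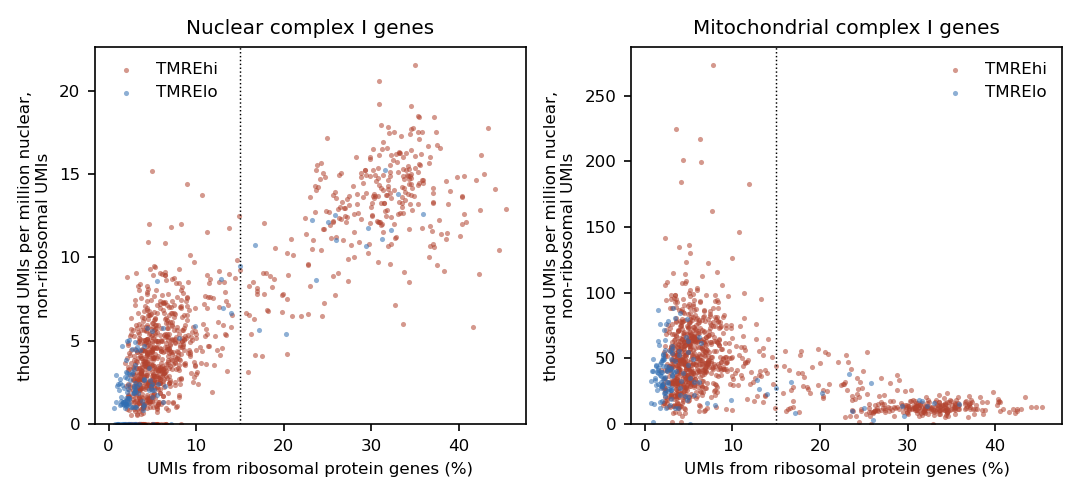
Summed level of the 36 nuclear (left) and 7 mitochondrial (right) complex I genes in each barcode, in units of 1000 UMIs per 1000000 nuclear, non-ribosomal UMIs, against the percentage of UMIs from ribosomal protein genes; each point is 1 barcode of TMREhi (red) or TMRElo (blue), and the dotted line is the 15% limit between classes. Nuclear levels climb with the ribosomal share, while mitochondrial levels are spread widely below the limit and are low above it.

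The difference was graded for the nuclear genes. Across TMREhi bins of ribosomal share, the nuclear level was 2912 (2348–3572) below 2.5%, 3347 between 2.5% and 5%, 4290 between 5% and 7.5%, 5835 between 7.5% and 15%, 11050 between 15% and 25%, and 14552 (14127–14987) at 35% or more. The mitochondrial level did not follow it in the same bins. It lay between 50173 and 58709 in the 4 bins below 15%, at 23202 (22576–23842) between 15% and 25%, and between 12333 and 13794 above 25%. The 59 TMREhi barcodes between 15% and 25% were thus intermediate for both sets. In TMRElo the bins above 5% held under 20 barcodes each and were not read.

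By the rule of at least 1.5-fold on the log2 scale after adding 1 to each level, 33 of the 36 nuclear members were lower in low-ribosomal TMREhi barcodes, a call that 19.6% of the 9069 genes with a mean level of at least 10 received. In TMRElo 31 were lower (30.9% of 8615 genes). All 7 mitochondrial members were higher by that rule in both libraries, as were 52.0% of genes in TMREhi and 44.8% in TMRElo. The median log2 ratio of low- over high-ribosomal barcodes was -1.82 for the nuclear members and 0.65 for all genes in TMREhi, and -2.21 and 0.44 in TMRElo. Among the 735 low-ribosomal TMREhi barcodes the summed level of the αβ thymocyte markers was 1522, against 377 in the high-ribosomal class, and in TMRElo it was 423 against 200. Their part in these ratios was not tested. Among barcodes with at most 10% mitochondrial UMIs, 48 low- and 269 high-ribosomal ones in TMREhi, the nuclear log2 ratio of sums was -1.54, the mitochondrial one was 0.30, and 1 of the 7 mitochondrial members was at least 1.5-fold higher, as were 51.5% of genes. At that limit 2 of the 7 were lower, and the mitochondrial median of 0.37 lay below the all-gene median of 0.65.

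**Figure D2:**
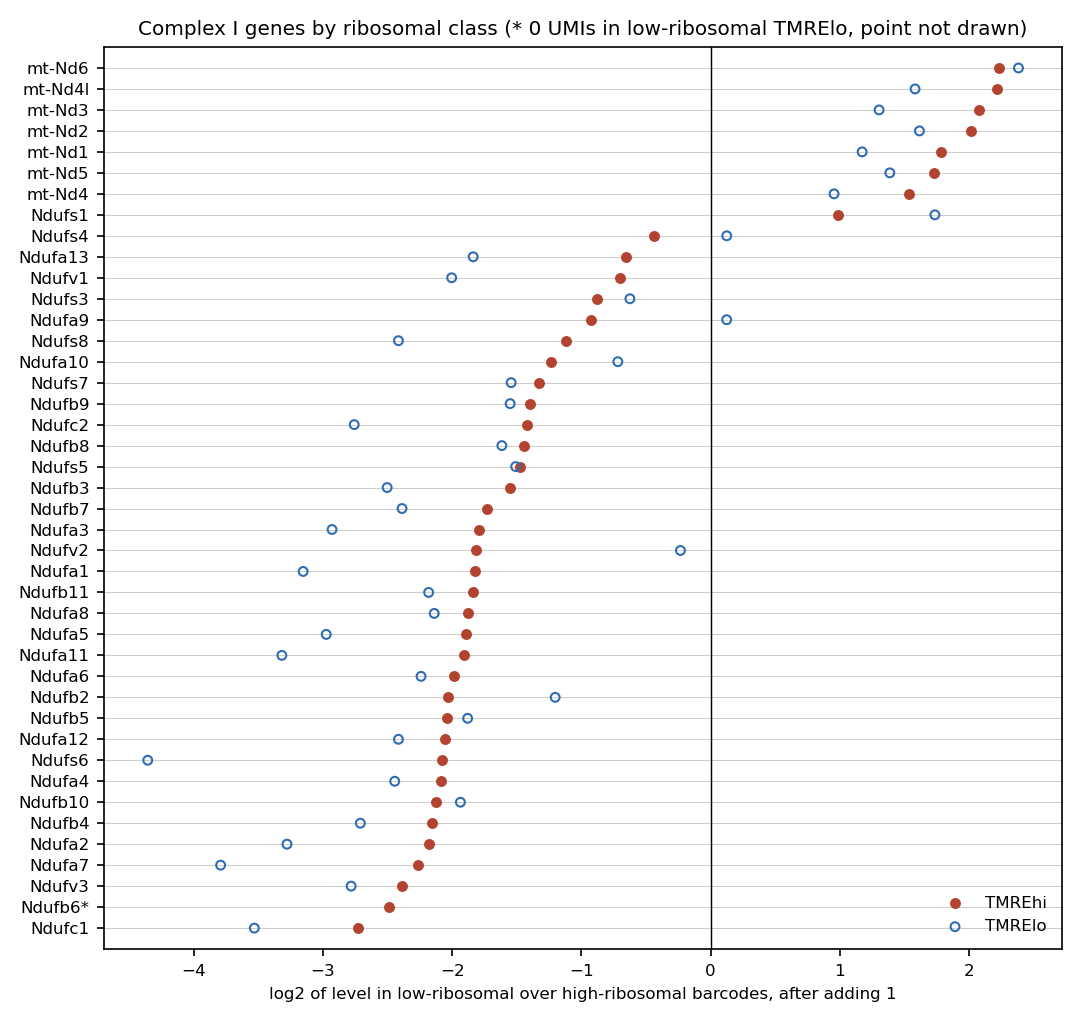
Log2 ratio of low-ribosomal over high-ribosomal barcodes for 42 of the 43 complex I genes, after adding 1 to each level, in TMREhi (filled red) and TMRElo (open blue), sorted by TMREhi. The 7 mitochondrial genes and Ndufs1 lie to the right of 0 in both libraries; Ndufb6 had 0 UMIs in low-ribosomal TMRElo barcodes and its point is not drawn.

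The nuclear core subunits ranged in TMREhi from a log2 ratio of -1.82 for Ndufv2 to 0.98 for Ndufs1. Ndufs1, the large iron-sulfur subunit of the NADH-oxidising module, was the one nuclear member higher in low-ribosomal TMREhi barcodes. Its level was 107 in low-ribosomal and 53.8 in high-ribosomal TMREhi barcodes, 2.00-fold higher (1.51–2.64), and 123 and 36.3 in TMRElo, where only 2 UMIs were counted in the high-ribosomal class (3.39-fold, 0.780–30.8). Ndufv1, the subunit that binds NADH and FMN, was 1.63-fold lower in TMREhi (1.26–2.12). Its iron-sulfur partner Ndufv2 was lower by 3.55-fold in the same barcodes (2.86–4.44), at 96.4 against 342. Ndufs3, Ndufs8 and Ndufs7 of the ubiquinone-reducing module were 1.85-, 2.19- and 2.53-fold lower. The core median was -0.88, against -1.94 for the 10 Ndufb genes and -1.89 for the 19 other accessory genes.

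Accessory genes made up the strongly lower end. Ndufc1, a small membrane-arm subunit, had a level of 60.6 in low-ribosomal and 408 in high-ribosomal TMREhi barcodes, 6.73-fold lower (5.18–8.89), and 35.2 against 418 in TMRElo. Ndufb6, in the distal membrane arm, followed with 68.5 and 389 (5.67-fold lower, 4.42–7.36). In TMRElo Ndufb6 had 0 of its 17 UMIs in the low-ribosomal class, at least 11.7-fold lower when set against a floor of 3 counts. Ndufv3, the small accessory subunit of the NADH-oxidising module, was 5.27-fold lower in TMREhi (4.27–6.56). At the other end Ndufs4, an accessory subunit placed between the NADH-oxidising and ubiquinone-reducing modules, stood at 181 and 245 in TMREhi (1.36-fold lower, 1.14–1.62) and at 158 and 145 in TMRElo. The 5 genes with YY1 letters had log2 ratios of -2.73 for Ndufc1, -2.08 for Ndufs6, -1.33 for Ndufs7, -0.93 for Ndufa9 and -0.44 for Ndufs4.

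The order of the 36 nuclear members was alike in the 2 libraries, with a Spearman correlation of 0.72 across genes between their log2 ratios. The libraries share gene length and base composition, and genes are not independent replicates. Genes with longer transcripts differed less between the classes: the correlation of the log2 ratio with the longest annotated transcript was 0.42 in TMREhi and 0.63 in TMRElo, and 0.37 and 0.60 without Ndufs1. The 12 members with the shortest transcripts (419 to 732 bases) had a median of -1.91 in TMREhi, the middle 12 (757 to 1110 bases) -1.89 and the longest 12 (1249 to 4371 bases) -1.08. Ndufc1 was lowest although it fell among the longest 12.

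The other nuclear subunits of oxidative phosphorylation were lower as well. Of 39 with sufficient level, 37 were at least 1.5-fold lower in low-ribosomal TMREhi barcodes (19.6% of all genes were), with a median log2 ratio of -2.02. Sdha, the flavoprotein of complex II, was the single one higher (1.51-fold, 1.26–1.80) and is named here after its values were seen. Complex I made up 32.8% (32.0–33.6) of the UMIs of nuclear subunits in low-ribosomal and 29.1% (28.8–29.4) in high-ribosomal TMREhi barcodes. Of 20 assembly factors of complex I, 8 were lower and 4 higher by 1.5-fold (median -0.22), beside 19.6% and 52.0% of all genes (median 0.65). Of the 6 nuclear regulators with sufficient level, among them Nrf1, Gabpa and Yy1, 5 were higher by 1.5-fold (median 1.22), the call that 52.0% of all genes received.

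Within the mitochondrial set the 7 genes held similar shares of the UMIs of the 13 mitochondrial messages, 23.5% and 24.1% in low- and high-ribosomal TMREhi barcodes and 22.4% and 25.1% in TMRElo. Their own ratios were not equal. In TMREhi mt-Nd6, the single complex I gene of the light strand, was 4.71-fold higher in low-ribosomal barcodes (4.23–5.25) and mt-Nd4l 4.64-fold (4.52–4.76). The antiporter-like subunit mt-Nd4 was 2.90-fold higher (2.77–3.04), the least of the 7. The genes mt-Nd3, mt-Nd2, mt-Nd1 and mt-Nd5 were 4.22-, 4.05-, 3.45- and 3.31-fold higher. In TMRElo mt-Nd6 was again highest (5.24-fold, 2.74–11.2) and mt-Nd4 lowest (1.94-fold, 1.54–2.46).

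The 2 genes at the printed junction therefore parted. For each mt-Nd4 UMI there were 4.14 mt-Nd4l UMIs (4.01–4.27) in low-ribosomal and 2.59 (2.49–2.70) in high-ribosomal TMREhi barcodes, and 4.45 (3.97–4.99) and 2.88 (2.27–3.69) in TMRElo. The kit counts from the 5′ end, where mt-Nd4l lies on the shared messenger. The pair mt-Nd5 and mt-Nd6, which overlap by 14 bases on opposite strands, shifted likewise in TMREhi. There were 0.303 mt-Nd6 UMIs per mt-Nd5 UMI (0.283–0.323) in low-ribosomal barcodes against 0.213 (0.192–0.235) in high-ribosomal ones. In TMRElo the values were 0.263 (0.211–0.326) and 0.132 (0.0607–0.255), with overlapping intervals. The second rested on 10 mt-Nd6 UMIs. Whether counting used strand is not given in the sources used here, so reads of the overlapping stretch cannot be assigned with certainty.

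Between the sorted fractions, over all barcodes, nuclear complex I stood at 10475 (10358–10594) in TMREhi and 5224 (4885–5581) in TMRElo, 2.01-fold higher (1.88–2.15). Mitochondrial complex I stood at 28002 (27810–28195) and 31741 (30897–32603), a ratio of 0.882 (0.858–0.907). By the 1.5-fold rule 29 of 36 nuclear members were higher in TMREhi (24.1% of 9100 genes were), none was lower (32.1% of genes), and none of the 7 mitochondrial members was called. The median log2 ratio was 1.01 for the nuclear members and -0.17 for all genes. The pooled values mix the classes in different proportions, since 290 of 1025 TMREhi barcodes and 15 of 133 TMRElo barcodes were high-ribosomal. With equal weight for each barcode the mitochondrial log2 ratio turned from -0.18 to 0.23.

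Within each class the nuclear ratio of sums was smaller and stayed above 1. In low-ribosomal barcodes the nuclear ratio TMREhi over TMRElo was 1.70 (1.51–1.92), and 21 of 36 members were at least 1.5-fold higher (29.1% of 9256 genes), with a median log2 ratio of 0.92 against 0.06 for all genes. The mitochondrial ratio there was 1.37 (1.33–1.41), and all 7 members were higher at all (52.6% of genes were), from mt-Nd5 at 1.09 (0.983–1.21) to mt-Nd1 at 1.59 (1.48–1.70). At most 10% mitochondrial UMIs, in 48 and 20 barcodes, the mitochondrial log2 ratio turned from 0.45 to -0.26. In high-ribosomal barcodes the nuclear ratio was 1.28 (1.18–1.39), with 8 of 36 members past 1.5-fold (25.2% of 8314 genes) and a median of 0.34 against -0.12. Without the 5 deepest barcodes of each library 14 of 36 were past 1.5-fold (35.4% of genes), 11 of 36 were lower at all instead of 5, and 1 was lower by at least 1.5-fold (38.2% of genes). The mitochondrial ratio was 0.930 (0.868–0.998). The classes themselves differed between libraries. The median ribosomal share was 5.16% in TMREhi and 2.51% in TMRElo in the low-ribosomal class, and 31.3% and 26.0% in the high-ribosomal class. The part of ribosomal share in the high-ribosomal ratio was not tested. Between barcodes of 2.5% to 5%, 313 and 45 in number, the nuclear levels were 3347 (3161–3542) and 2267 (1843–2760).

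**Figure D3:**
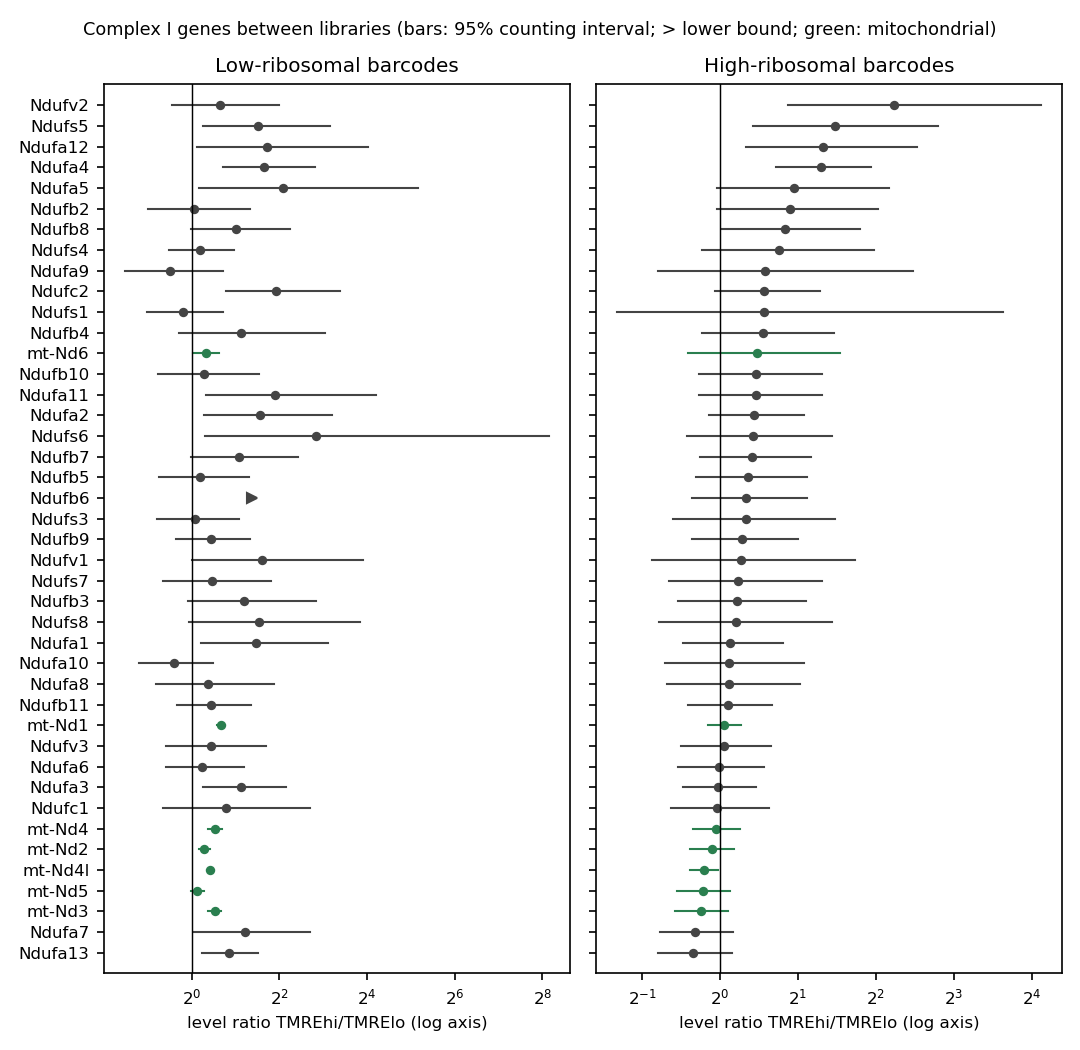
Ratio of levels TMREhi over TMRElo for 42 of the 43 complex I genes in low-ribosomal (left) and high-ribosomal (right) barcodes, on log axes that differ in range; points are ratios, bars 95% counting intervals, green marks mitochondrial and grey nuclear genes, and the triangle is a lower bound for Ndufb6. In the high-ribosomal class Ndufv2, Ndufs5, Ndufa12 and Ndufa4 lie farthest to the right, with intervals above 1.

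The nuclear core again spread widely. Ndufv2 was at 342 in TMREhi and 72.6 in TMRElo among high-ribosomal barcodes, 4.71-fold higher (1.83–17.3) on 4 TMRElo UMIs, and at 96.4 and 61.6 among low-ribosomal ones (1.56-fold, 0.731–3.99). Ndufv1 was 3.05-fold higher in the low-ribosomal class (1.01–15.1, 3 TMRElo UMIs) and 1.20-fold (0.546–3.31) in the high-ribosomal class. Ndufs1 had levels of 107 and 123 in low-ribosomal barcodes, a ratio of 0.870 (0.497–1.65), and it was the single nuclear member below 1 over all barcodes (56.4% of genes were), at 0.762 (0.459–1.36). Ndufs3 stayed near 1 in the low-ribosomal class, at 1.05 (0.580–2.10). The intervals of Ndufs7 and Ndufs8 held 1 within both classes.

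Among the accessory genes 3 had intervals above 1 in both classes. Ndufa4 was at 250 and 79.2 in low-ribosomal barcodes (3.16-fold, 1.64–6.99) and at 1068 and 436 in high-ribosomal barcodes (2.45-fold, 1.64–3.83). Ndufs5, a small subunit of the membrane arm, was at 126 and 44.0 (2.87-fold, 1.20–8.98) and at 353 and 127 (2.77-fold, 1.34–6.93). Ndufa12, of the NADH-oxidising side, was at 86.4 and 26.4 (3.27-fold, 1.08–16.2) and at 362 and 145 (2.49-fold, 1.26–5.79). Without Ndufa4, the counts past 1.5-fold were 20 of 35 and 7 of 35, beside 29.1% and 25.2% of all genes.

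Other accessory genes differed in 1 class only by their intervals, a contrast that was not itself tested. Ndufc2 was 3.80-fold higher in low-ribosomal TMREhi barcodes (1.71–10.5) and 1.48-fold (0.954–2.43) in high-ribosomal ones. Ndufa11 was 3.76-fold (1.25–18.5) and 1.38-fold (0.831–2.48), and Ndufa5 4.23-fold (1.13–35.6) and 1.92-fold (0.969–4.48). Ndufb6 had 69 UMIs against 0 in the low-ribosomal class, at least 2.59-fold higher against a floor of 3 counts, and a ratio of 1.26 (0.781–2.17) in the high-ribosomal class. Ndufa9 and Ndufa10 were below 1 in the low-ribosomal class, at 0.715 (0.351–1.64) and 0.752 (0.435–1.39), and Ndufa13, also known as GRIM-19, in the high-ribosomal class at 0.789 (0.576–1.11). In all, 14 of 36 nuclear intervals lay above 1 in the low-ribosomal class (9.64% of genes) and 5 in the high-ribosomal class (4.31%), and none lay below 1 in either (9.04% and 6.22% of genes). Whether an interval excludes 1 depends on the number of UMIs, and these shares were not matched to the members in level. Across the 36 nuclear members the library log2 ratio in the low-ribosomal class fell with longest transcript length. The Spearman correlation was -0.51, and -0.47 without Ndufs1. In the high-ribosomal class it was 0.20, and 0.17 without Ndufs1. The part of transcript length in the library differences was not tested.

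Other nuclear subunits of oxidative phosphorylation gave similar numbers. In low-ribosomal barcodes 32 of 39 were at least 1.5-fold higher in TMREhi (29.1% of all genes), with a median of 1.03. In high-ribosomal barcodes 8 of 39 were (25.2% of all genes), with a median of 0.32. The median of the complex I assembly factors was 0.36 and -0.06. The αβ thymocyte markers also differed between the low-ribosomal barcodes of the libraries, at 1522 and 423, and their part in the ratio was not tested. Among low-ribosomal barcodes led by a Vγ1-family segment, defined below, the nuclear ratio was 2.04 (1.70–2.48), with 9 of 36 member intervals above 1 (5.76% of genes), and the mitochondrial ratio 1.49 (1.42–1.56). Among those led by Vγ4 the ratios were 2.26 (1.58–3.35) and 1.40 (1.30–1.52), on 32 nuclear UMIs from 21 TMRElo barcodes, too few for single members, of which 1 of 36 had an interval above 1 (2.24% of genes). High-ribosomal barcodes led by the Vγ1 family gave 1.25 (1.14–1.37) and 0.925 (0.853–1.0), with 8 of 36 members past 1.5-fold (27.3% of genes). Ribosomal share was not matched between the libraries in these comparisons by segment. In low-ribosomal barcodes its median was 5.85% in TMREhi and 2.5% in TMRElo for the Vγ1 family. For Vγ4 it was 5.66% and 2.65%, and for the high-ribosomal Vγ1 family 31.3% and 27.2%. The part of ribosomal share in these ratios was not tested.

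The T cell receptor γ variable segment marks γδ lineages that leave the fetal thymus in waves, with Vγ5 and Vγ6 cells as early ones. Each barcode was assigned to the family of its single most abundant segment, and ties between families were left out. UMIs were not summed over the segments of a family. In TMREhi 97 barcodes were led by Vγ6, 86 by Vγ4, 39 by Vγ5 and 381 by the Vγ1 family, whereas no TMRElo barcode was led by Vγ6. No γ segment was detected in 327 TMREhi barcodes, and 58 of the 191 low-ribosomal calls for the Vγ1 family rested on 1 UMI. Pooled over classes, Vγ6-led barcodes had a nuclear level of 11062 (10610–11529) and Vγ1-family-led ones 12122 (11961–12285), a ratio of 0.913 (0.873–0.953). The mitochondrial levels were 26623 and 21065, a ratio of 1.26 (1.23–1.30). The 2 groups differed in composition, with 57 of 97 Vγ6-led and 191 of 381 Vγ1-family-led barcodes in the low-ribosomal class.

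Within classes these ratios shrank or turned. Among high-ribosomal TMREhi barcodes the Vγ6 over Vγ1 ratio was 1.01 (0.963–1.06) for the nuclear and 1.02 (0.970–1.07) for the mitochondrial members, on 40 and 190 barcodes. Among low-ribosomal barcodes it was 1.15 (1.02–1.29) and 0.925 (0.892–0.959). In the high-ribosomal class the nuclear levels of all 4 families had intervals that overlapped those of their neighbours, in the order Vγ4 (14661, 13846–15511), Vγ5 (14279, 13111–15524), Vγ6 (13838, 13222–14475) and Vγ1 family (13696, 13507–13887). The nuclear ratio of Vγ4 over the Vγ1 family was 1.07 (1.01–1.13), with an interval above 1. That of Vγ5 was 1.04 (0.956–1.13). The mitochondrial level of the 12 Vγ4-led barcodes was 18611 (17692–19565), above the Vγ5 (15448, 14231–16740), Vγ6 (13502, 12894–14132) and Vγ1 family (13269, 13084–13457) levels. The 5 deepest of those 12 barcodes held 60.9% of their UMIs.

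In the low-ribosomal class the order of the families was another. Nuclear complex I was highest in Vγ6-led barcodes at 5323 (4783–5909), followed by the Vγ1 family at 4641 (4403–4888), Vγ4 at 3985 (3623–4374) and Vγ5 at 3538 (2943–4218). The nuclear ratio over the Vγ1 family was 0.859 (0.770–0.956) for Vγ4 and 0.762 (0.629–0.916) for Vγ5. Neighbouring Vγ6 and Vγ1 level intervals overlapped, as did those of Vγ4 and Vγ5. The median ribosomal share followed the same order, at 6.23%, 5.85%, 5.66% and 3.82%. Mitochondrial complex I was 58120 in the Vγ1 family, 57496 in Vγ4, 53748 in Vγ6 and 49504 (47201–51889) in Vγ5.

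**Figure D4:**
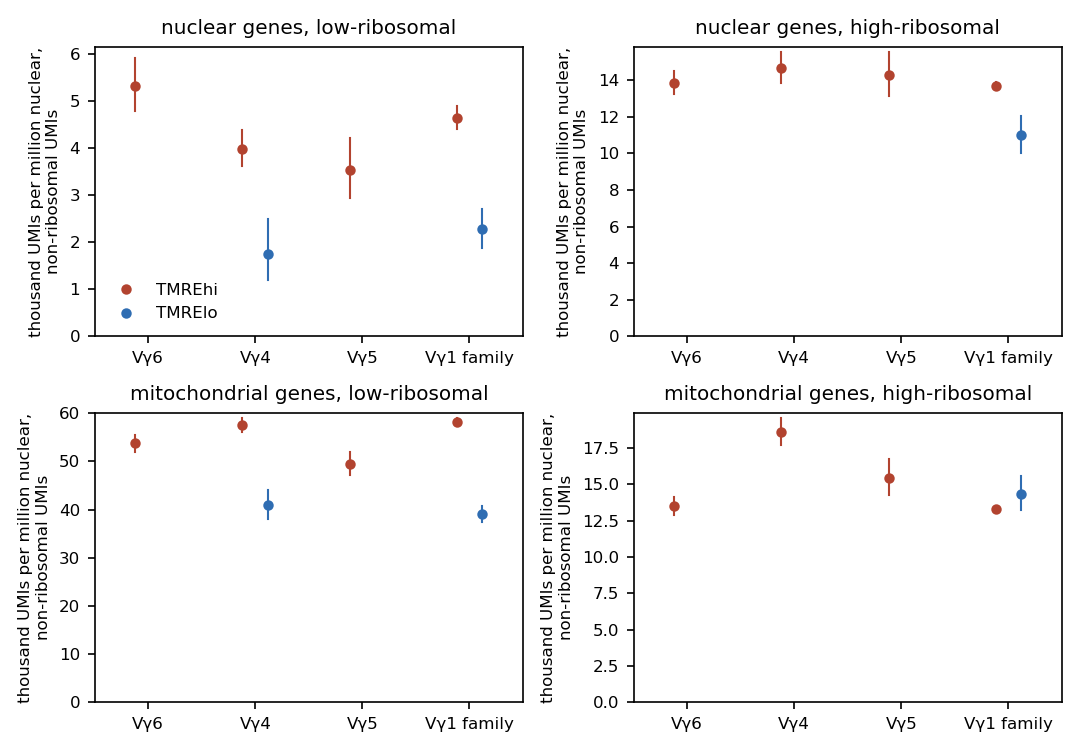
Summed levels of nuclear (top) and mitochondrial (bottom) complex I genes, in units of 1000 UMIs per 1000000 nuclear, non-ribosomal UMIs, by the γ variable segment family that led a barcode, in low-ribosomal (left) and high-ribosomal (right) barcodes; bars are 95% counting intervals, and groups with fewer than 2 barcodes are not drawn. The axes start at 0 and differ in range; TMREhi (red) lies above TMRElo (blue) for nuclear genes wherever both are drawn.

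Between Vγ6- and Vγ1-led high-ribosomal barcodes the sums were alike. Single members passed 1.5-fold less often than all genes with a mean level of at least 10. Those genes were not matched to the members in level, so the lower share was not read further. By the 1.5-fold rule 5 of 36 nuclear members were lower in Vγ6-led barcodes (26.1% of 8319 genes) and 1 was higher (27.6%), shares below those of all genes. Ndufs5 was at 518 and 335 (1.55-fold, 1.19–1.99), Ndufa13 at 832 and 558 (1.49-fold, 1.21–1.82) and Ndufa3, of the membrane arm, at 1014 and 701 (1.45-fold, 1.20–1.73). On the lower side Ndufa9, a ubiquinone-module subunit that binds a nicotinamide nucleotide, was at 51.1 and 113 (0.451, 0.178–0.949), Ndufc2 at 328 and 558 (0.588, 0.425–0.794) and Ndufa11 at 233 and 388 (0.601, 0.407–0.858). Pooled over classes, 8 nuclear members were at least 1.5-fold lower in Vγ6-led barcodes (21.0% of 8753 genes) and none was higher (26.2%). There Ndufs3 was at 1.31 (0.947–1.77). All 7 mitochondrial members stood above 1 in the pooled comparison (53.5% of genes), and mt-Nd1 was at 0.806 (0.727–0.893) within the high-ribosomal class.

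Cycling state was read in the high-ribosomal TMREhi barcodes with at least 2000 UMIs, of which 87 were called G1, 74 S and 116 G2/M after thinning to that depth. Of these 277 barcodes 52 lay near the limit between G1 and the cycling phases. Nearness to the limit between S and G2/M was not measured. Nuclear complex I was 12873 (12466–13289) in G1 and 13934 (13751–14119) in S and G2/M together, 1.08-fold higher (1.05–1.12). Mitochondrial complex I was 15888 (15436–16350) and 13537 (13357–13719), a ratio of 0.852 (0.825–0.880). In G1, S and G2/M the mitochondrial levels fell in order, at 15888, 14565 and 13048. The nuclear levels were 12873, 13744 (13425–14068) and 14025 (13802–14250), with overlapping intervals for S and G2/M. In single barcodes the nuclear medians were 12850, 13727 and 13710. Nuclear genes supplied 44.8% (43.7–45.8) of complex I UMIs in G1, 48.6% (47.7–49.4) in S and 51.8% (51.2–52.4) in G2/M.

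Depth and ribosomal share moved with phase: the median was 5175 UMIs and 34.0% ribosomal in G1 and 12334 UMIs and 30.8% in the cycling barcodes. Their part in the difference was not tested. In TMRElo 7 high-ribosomal barcodes were called G1 and 7 S or G2/M, with nuclear levels of 12355 (10762–14117) and 9983 (8985–11061) and mitochondrial levels of 17446 (15542–19517) and 13374 (12215–14614). The nuclear difference there was opposite to that in TMREhi. In TMREhi both differences turned, to log2 ratios of -0.03 (nuclear) and 0.14 (mitochondrial), when 257 barcodes with at least 2 UMIs of G2/M genes were set against 9 with none.

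By the 1.5-fold rule 8 of 36 nuclear members were higher in cycling TMREhi barcodes (19.1% of 8478 genes) and none lower (28.6% of genes were), with a median log2 ratio of 0.15 against -0.14 for all genes. The highest ratios were those of 2 core subunits of the NADH-oxidising module. Ndufv2 was at 372 in S and G2/M and 187 in G1 (2.00-fold, 1.51–2.68), and Ndufv1 at 141 and 74.6 (1.89-fold, 1.22–3.07). Ndufs6, a zinc-binding accessory subunit of the same module, followed at 286 and 170 (1.69-fold, 1.26–2.31). The core genes Ndufs1, Ndufs3, Ndufs7 and Ndufs8 lay between 0.962 and 1.17 with intervals holding 1. Lowest were Ndufa13 at 537 and 777 (0.692, 0.597–0.804), Ndufa6, an acyl-carrier-binding subunit, at 507 and 722 (0.701, 0.602–0.819) and Ndufv3 at 486 and 631 (0.770, 0.655–0.909).

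**Figure D5:**
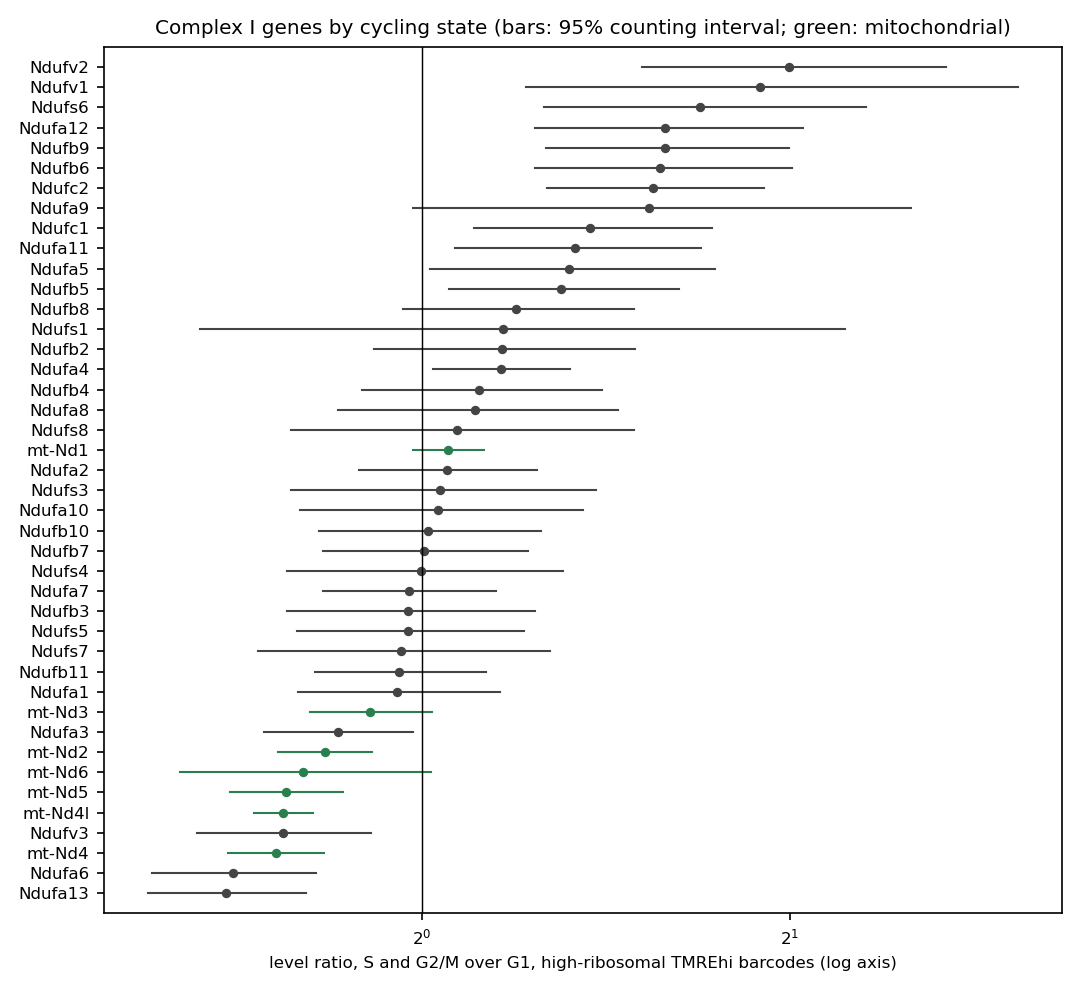
Ratio of levels in S and G2/M over G1 for 42 of the 43 complex I genes in high-ribosomal TMREhi barcodes, on a log axis; points are ratios, bars 95% counting intervals, green marks mitochondrial and grey nuclear genes. Ndufv2 and Ndufv1 lie farthest to the right, and 6 of the 7 mitochondrial genes lie to the left of 1.

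Of the mitochondrial members 6 stood lower in cycling barcodes (57.2% of genes did), from mt-Nd4 at 0.760 (0.695–0.832) to mt-Nd3 at 0.908 (0.811–1.02), and mt-Nd1 was at 1.05 (0.985–1.12). The other 6 mitochondrial messages were all lower too, with a median log2 ratio of -0.41 against -0.32 for the complex I genes. Other nuclear subunits of oxidative phosphorylation were higher in 33 of 39 cases (42.8% of genes), with 3 past 1.5-fold (19.1% of genes) and a median of 0.27.

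Across single barcodes the nuclear and mitochondrial sums were only weakly related. Their Spearman correlation was 0.20 over the 735 low-ribosomal and -0.24 over the 290 high-ribosomal TMREhi barcodes, and -0.01 over the 118 low-ribosomal TMRElo barcodes. The points share a denominator and differ in depth, so these values describe the barcodes and support nothing further.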

How the data were processed

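The authors deposited raw UMI counts per gene and barcode, which held 1202 TMREhi and 196 TMRElo barcodes. Cell Ranger is named as 3.0.2 per the file headers and as 3.0, with mm10, per the submitters' processing notes. The sources used here give no settings or annotation. Gene positions are from GENCODE vM21 (GRCm38), where 30934 of 31053 identifiers were found.

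No limit on the share of mitochondrial UMIs was applied, since it acts on the mitochondrial members, and a limit of 10% is an alternative. Counts were summed over barcodes. Intervals are exact conditional binomial for ratios, exact Poisson for levels and exact binomial for shares, at 95%. Per-gene ratios compare genes with a mean level of at least 10, after adding 1. The shares of all genes given beside the members were not matched to them in level. Phases were called with scanpy 1.11.5. Scrublet called 5 TMREhi and 18 TMRElo barcodes as doublets, and these were kept. Python 3.11.15, numpy 2.4.6, scipy 1.17.1 and pandas 2.3.3 were used, and the ratios were tested on simulated data. The gene lists and members were chosen with earlier results of these data known. One member and 1 marker gene enter the sums and counts but are not reported here by name. Named were the mitochondrial and other core members, Ndufa4, the 5 highest and lowest nuclear library ratios, and the 3 highest and lowest of the other comparisons. Both rankings took genes with a mean of at least 50. Of the nuclear members past 1.5-fold between libraries with an interval excluding 1, only some are described by name. Alternatives covered scaling, barcode filters, equal weight per barcode, doublets, class limits and phase rule.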

Additional observations from a re-analysis of the deposited data

How the results depend on the processing

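No paired analysis was possible because there is 1 library per fraction and no replicate number. Of the alternatives tried, 63 results moved by less than their counting interval, 47 moved further and 8 turned direction; the cause was not tested. Values are log2 ratios. The limits on ribosomal share within the low class, all deposited barcodes, a lead of at least 2 UMIs for the γ segment, the medians without the deepest barcodes and the settings for the counts past 1.5-fold were chosen after seeing the data.

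For TMREhi over TMRElo over all barcodes, nuclear complex I (1.0) was 0.84 per 1000000 of all UMIs, 0.80 per 1000000 nuclear UMIs, 0.65 in cells with at most 10% mitochondrial UMIs and 1.39 without the 5 deepest barcodes. Mitochondrial complex I (-0.18) was -0.35, -0.39, -0.27 and -0.34, was -0.30 in all deposited barcodes, and turned to 0.23 with equal weight per barcode. The member medians were 0.84, 0.68 and 1.36 (nuclear, per 1000000 of all UMIs, at most 10% mitochondrial, without the 5 deepest) and -0.42 (mitochondrial, per 1000000 of all UMIs and without the 5 deepest).

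In the low-ribosomal class nuclear complex I (0.77) was 0.39 at most 10% mitochondrial, 0.96 without the 5 deepest and 0.56 at ribosomal shares of 2.5% to 5%. Mitochondrial complex I (0.45) was 0.35 per 1000000 of all UMIs, 0.40 per 1000000 nuclear UMIs, 0.51 without the 5 deepest, 0.35 below 2.5% ribosomal and 0.24 between 2.5% and 5%, and turned to -0.26 at most 10% mitochondrial (48 and 20 barcodes). In the high-ribosomal class nuclear complex I (0.35) was 0.23 with equal weight, and mitochondrial complex I (-0.10) was -0.36 without the 5 deepest and -0.22 at a 20% limit.

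Between ribosomal classes in TMREhi, nuclear complex I (-1.67) was -1.44 per 1000000 of all UMIs, -1.22 per 1000000 nuclear UMIs, -1.54 at most 10% mitochondrial and -1.73 at a 10% ribosomal limit. Mitochondrial complex I (1.96) was 2.19, 2.41, 0.30 and 1.84 in the same order, 1.69 with equal weight and 1.99 at a 20% limit.

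For Vγ6 over the Vγ1 family, the nuclear value (-0.13) was -0.22 without the 5 deepest and -0.05 with equal weight, and turned to 0.01 at most 10% mitochondrial, 0.01 in the high- and 0.20 in the low-ribosomal class. The mitochondrial value (0.34) was 0.09 at most 10% mitochondrial, 0.47 without the 5 deepest, 0.04 with equal weight and 0.03 in the high-ribosomal class, and turned to -0.11 in the low-ribosomal class.

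For cycling over G1, the nuclear value (0.11) was 0.21 per 1000000 of all UMIs and 0.19 per 1000000 nuclear UMIs. The mitochondrial value (-0.23) was -0.14, -0.15, -0.17 at most 10% mitochondrial and -0.09 with equal weight. Splitting by at least 2 against no UMIs of G2/M genes (257 and 9 barcodes) turned them to -0.03 and 0.14. Depth limits the TMRElo values, with 0 to 23 UMIs per nuclear member in the low-ribosomal and 2 to 41 in the high-ribosomal class.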
